A study of Mus musculus with 12 samples.

Results

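Among the 24346 gene symbols of the expression tables, 208 were silent in vehicle-treated myeloid-derived suppressor cells (MDSCs) and on under the histone deacetylase inhibitor MS-275. A symbol was taken when it lay under 0.5 FPKM in all 4 vehicle libraries and at 1 FPKM or more in both MS-275 libraries of the monocytic subset (M-MDSCs), the polymorphonuclear subset (PMN-MDSCs) or both. Symbols starting with Snor, Mir, Trim, Usp or Hist were left out. FPKM scales fragment counts to transcript length and sequencing depth, so levels may be compared between genes of different length. Of the 208 members, 37 were on in both subsets, 86 in M-MDSCs only and 85 in PMN-MDSCs only. They made up 1.86% of the 11161 symbols that were silent in vehicle. The vehicle and MS-275 values chose the members, so these values are given below as a description and were not tested.

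The cells were sorted from Hepa 1-6 tumors, a mouse hepatoma line grown in the liver of wild-type female C57BL/6J mice of 6 to 8 weeks. The 6 groups were M-MDSCs and PMN-MDSCs from mice given vehicle, MS-275 or CXD101, with 2 libraries each. Both inhibitors were injected intraperitoneally at 5 mg/kg daily for 10 days, with cells collected on day 21. This schedule is described for M-MDSCs, whose libraries are called biological replicates, and was not given for the PMN-MDSC libraries in the sources used here. M-MDSCs were gated as CD11b+Ly-6ChiLy-6G- and PMN-MDSCs as CD11b+Ly-6CintLy-6G+ cells. Of the subset markers, Ccr2, S100a8, S100a9 and Csf3r followed the labels, while Ly6c2 and Csf1r did so only in part. Ccr2 ranged from 124 to 147 FPKM in M-MDSCs and from 27.5 to 40.7 FPKM in PMN-MDSCs. S100a8 lay at 5693 to 12836 FPKM in M-MDSCs and at 35864 to 117432 FPKM in PMN-MDSCs. For S100a9 the ranges were 4869 to 11888 and 31056 to 148247 FPKM. Itgam, which encodes CD11b, ranged from 257 to 285 FPKM in M-MDSCs and from 825 to 895 FPKM in PMN-MDSCs. The neutrophil receptor Csf3r lay between 8.75 and 24.9 FPKM in M-MDSCs and between 214 and 339 FPKM in PMN-MDSCs. Ly6c2, a gene of the Ly-6C antigen, was at 1306 to 2447 FPKM in M-MDSCs and at 455 to 511 FPKM in vehicle PMN-MDSCs, but at 1418 to 1677 FPKM in PMN-MDSCs under either inhibitor, above vehicle M-MDSCs. The monocyte receptor Csf1r was higher in vehicle PMN-MDSCs (160 and 145 FPKM) than in vehicle M-MDSCs (123 FPKM in each). Several hepatocyte, epithelial and NK cell markers were at or near 0. Ttr, Krt8, Krt19 and Ncr1 were listed at 0 in all 12 libraries, Alb reached 0.0528 FPKM and Epcam 0.467 FPKM, while the hepatocyte gene Apoa2 reached 1.91 FPKM. Of the stromal and vessel markers, Cdh5 and Col3a1 did not pass 0.105 FPKM, but Col1a1 and Pecam1 lay higher. Col1a1 in PMN-MDSCs lay at 2.08 and 2.08 FPKM in vehicle, 2.94 and 2.54 under MS-275 and 4.54 and 3.71 under CXD101. In M-MDSCs it did not pass 0.484 FPKM. Pecam1 lay at 9.44 and 8.8 FPKM in vehicle M-MDSCs and at 35.7 and 33.1 under MS-275. In PMN-MDSCs these values were 16.02 and 16.52 FPKM and 55.55 and 58.04 FPKM. The depth, estimated from the steps between low values, was between 6930000 and 10400000 reads per library.

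Histone deacetylases remove acetyl groups from histones, and the class I enzymes HDAC1, HDAC2 and HDAC3 act within corepressor complexes that hold genes of other cell lineages at a low level of transcription. MS-275 (entinostat) and CXD101 inhibit these enzymes. Blocking deacetylation in cultured cells is known to raise transcripts of genes that the cell type does not normally use, among them genes of epithelium, nerve cells and germ cells.

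The members came on at a low level. Among the 123 members on in M-MDSCs, the mean MS-275 level had a median of 1.65 FPKM and reached 8.40 FPKM. Among the 122 on in PMN-MDSCs the median was 1.92 FPKM and the highest level 16.5 FPKM. A mean of at least 5 FPKM was reached by 5 members in M-MDSCs and by 6 in the other subset. The FPKM of 151 members could be written as whole reads in all 12 libraries (to within 0.05 reads, plus a rounding allowance for large numbers, and with the implied transcript length checked against the annotation). Over these the passing MS-275 library with fewer reads held a median of 30 reads and the highest vehicle library a median of 6, and 12 members passed with fewer than 10 reads in a library. Most members had been detectable in vehicle: 7 of 208 were at 0 in all 4 vehicle libraries, against 8005 of the 11161 silent symbols (71.7%).

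Several members lay close to the limits. Fhdc1 (1.004 FPKM in the lower MS-275 library), Pdgfrb (1.01) and Napb (1.01) were just inside, and Tmem108 (0.999), Hoxb3 (0.996) and Myzap (0.994) just outside. On the vehicle side Bvht (0.498 FPKM), 2810429I04Rik (0.497) and Dusp9 (0.495) were just inside, and Lmntd2 (0.501), Cyp26a1 (0.503) and Flt1 (0.507) just outside. Judged on replicate 1 alone, 191 symbols met the limits in M-MDSCs, and 123 of them (64.4%) met them in replicate 2 as well. For the PMN-MDSC libraries the same was true of 122 of 253 symbols (48.2%). Starting from replicate 2, the shares were 123 of 218 (56.4%) in M-MDSCs and 122 of 204 (59.8%) in PMN-MDSCs. With vehicle and MS-275 exchanged, 29 of 10486 symbols silent under MS-275 met the limits (0.277%). With CXD101 in place of MS-275, 102 of the 11161 did (0.914%), 24 in M-MDSCs and 85 in PMN-MDSCs.

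**Figure D1:**
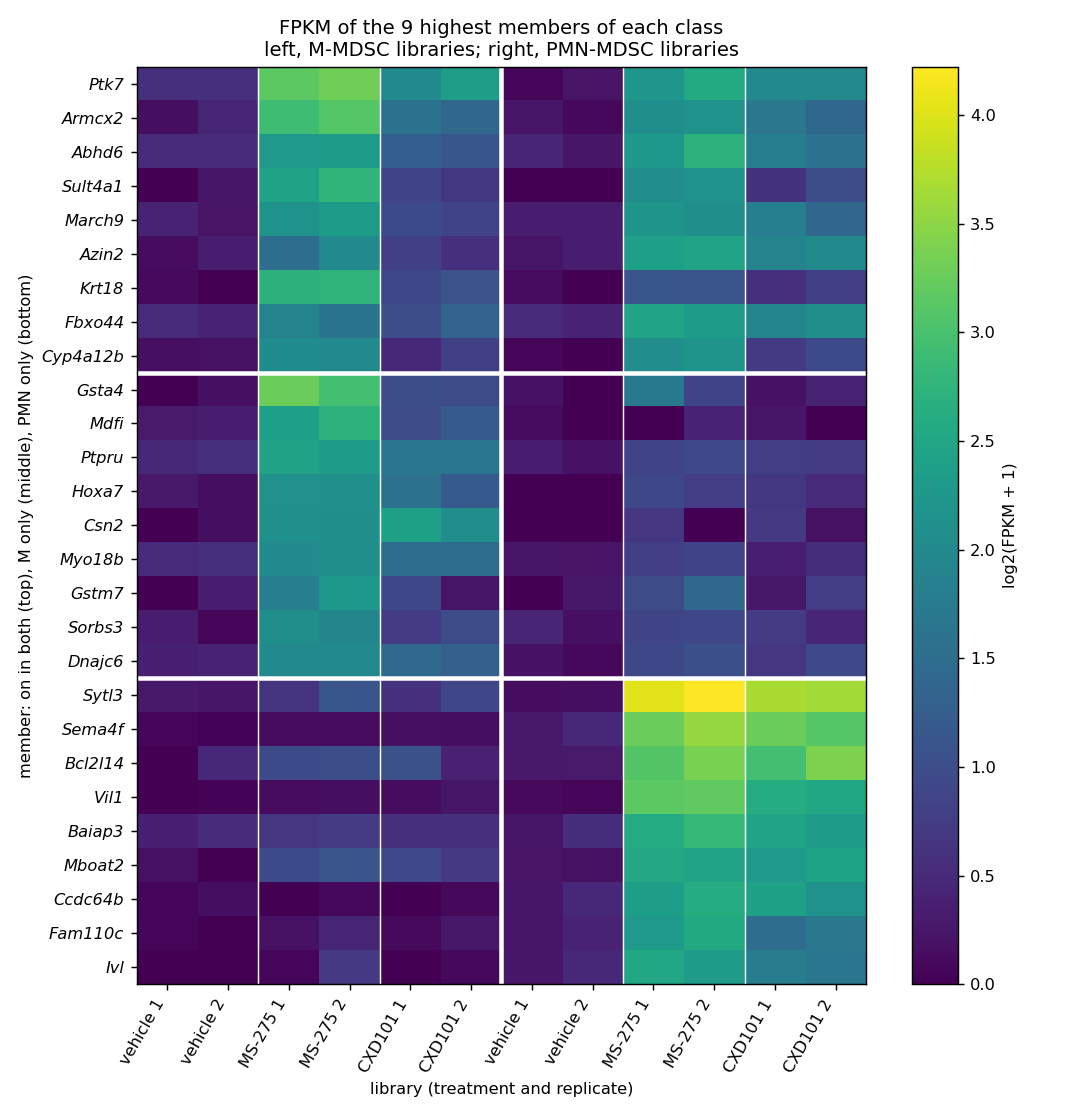
Heat map of log2(FPKM + 1) for the 9 members of each class with the highest mean MS-275 FPKM (rows) in the 12 libraries (columns; M-MDSCs left, PMN-MDSCs right, treatment and replicate named below). Vehicle columns are dark by the choice of members; Sytl3, the brightest row, had 15.4 and 17.7 FPKM in the MS-275 PMN-MDSC libraries, and CXD101 columns are brighter in PMN-MDSCs than in M-MDSCs for the bottom class.

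Among the 37 members on in both subsets, Ptk7, a catalytically inactive receptor tyrosine kinase of Wnt and planar cell polarity signaling, had the highest MS-275 level. Ptk7 lay at 0.493 and 0.490 FPKM in the vehicle M-MDSC libraries, at 7.93 and 8.87 under MS-275 and at 3.09 and 4.19 under CXD101. In PMN-MDSCs it lay at 0.0555 and 0.171 FPKM in vehicle, at 3.65 and 5.02 under MS-275 and at 3.08 and 2.98 under CXD101. In each subset both CXD101 libraries lay between those of vehicle and MS-275. The gap between vehicle and MS-275 was fixed by the choice of members, so nothing is read from this order. Krt18, a keratin of simple epithelia, lay at 5.54 and 5.73 FPKM under MS-275 in M-MDSCs (77 and 63 reads) and at 1.20 and 1.14 in PMN-MDSCs (11 reads in each library). In vehicle it was listed at 0 or at 1 read. Under CXD101 it lay at 0.892 and 1.12 FPKM in M-MDSCs and at 0.487 and 0.75 in PMN-MDSCs. Its usual filament partner Krt8 was listed at 0 in all 12 libraries. Whether this 0 means no transcript or reads that were not assigned was not tested.

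Other shared members among the highest had varied roles. Armcx2, an X-linked armadillo-repeat gene, lay at 6.52 and 7.60 FPKM under MS-275 in M-MDSCs and at 3.28 and 3.51 in PMN-MDSCs. Sult4a1, a sulfotransferase family member of the brain, lay at 4.43 and 5.79 FPKM in M-MDSCs and at 3.18 and 3.52 in PMN-MDSCs. Azin2, an antizyme inhibitor of polyamine metabolism, was higher in PMN-MDSCs, with 4.20 and 4.51 FPKM against 1.89 and 3.07. The shared members thus did not all lean to 1 subset: Armcx2 and Sult4a1 were higher in M-MDSCs and Azin2 in PMN-MDSCs. Abhd6, a monoacylglycerol lipase, and Cyp4a12b, a fatty acid hydroxylase of the cytochrome P450 family, were near equal between subsets, at 3.85 and 3.96 against 3.74 and 5.67 FPKM and at 3.14 and 3.03 against 3.22 and 3.56 FPKM. March9 and Fbxo44 had means over their 4 MS-275 libraries of 3.58 and 3.34 FPKM.

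The first 300 bases of annotated transcripts (GENCODE M21, mean over the transcripts of a symbol) were read for CpG dinucleotides, the sites of DNA methylation in vertebrates. All 191 protein-coding members had a value. Their median was 14.7 CpG in 300 bases, against 7 in the other 8928 protein-coding silent symbols with a value and 14.5 in the 10220 that were detected in vehicle (1 FPKM or more in both vehicle libraries of a subset). Other silent symbols that were above 0 in at least 1 vehicle library had a median of 11.0. At least 10 CpG were found in 74.3% of members, 36.5% of other silent symbols, 55.8% of those above 0 in a vehicle library and 77.9% of symbols detected in vehicle. By class the medians were 13.7 (both subsets), 16.8 (M-MDSCs only) and 13.0 (PMN-MDSCs only). No test was made, since the members were chosen by their level and most other silent symbols were at 0.

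**Figure D2:**
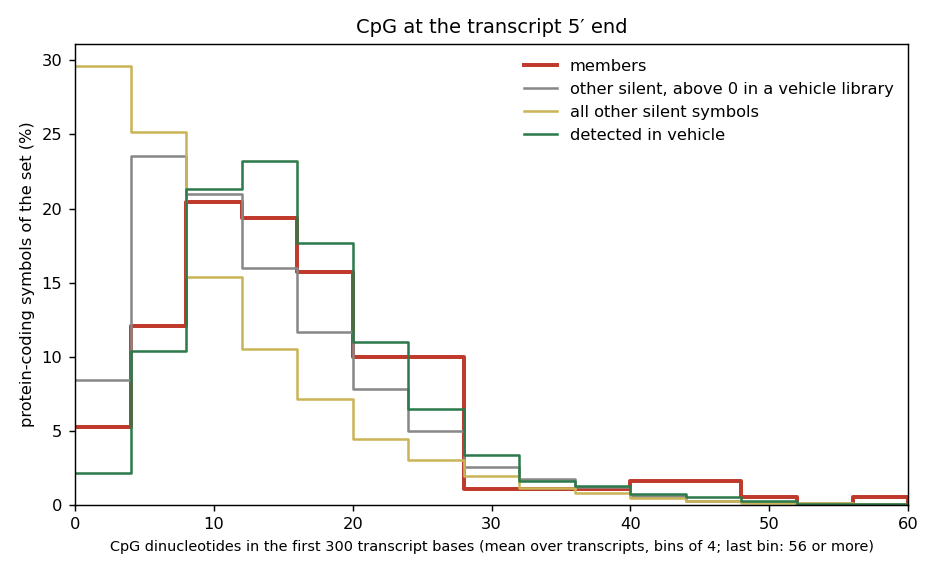
Distribution of the number of CpG dinucleotides in the first 300 transcript bases (x axis, bins of 4) as the percent of protein-coding symbols in each set (y axis), for members, all other silent symbols, the other silent symbols above 0 in a vehicle library, and symbols detected in vehicle. The members' line lies near that of the symbols detected in vehicle, with medians of 14.7 and 14.5, and the other silent symbols lie to the left with a median of 7.

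The promoters of 4 members are shown, chosen because their transcript starts differed in CpG: Ptk7 held 25.5 and Krt18 22 CpG in the first 300 transcript bases, and Csn2 1.2 and Ivl 1. Each line is the 250 bases before the RefSeq start site (GRCm38.p6), written 5′ to 3′ on the strand of the gene, with CG in capitals. They are chr17:46629505-46629754 (minus strand) for Ptk7, chr15:102027966-102028215 (plus) for Krt18, chr5:87699426-87699675 (minus) for Csn2 and chr3:92573736-92573985 (minus) for Ivl. They hold 14, 12, 2 and 0 CG.
Ptk7: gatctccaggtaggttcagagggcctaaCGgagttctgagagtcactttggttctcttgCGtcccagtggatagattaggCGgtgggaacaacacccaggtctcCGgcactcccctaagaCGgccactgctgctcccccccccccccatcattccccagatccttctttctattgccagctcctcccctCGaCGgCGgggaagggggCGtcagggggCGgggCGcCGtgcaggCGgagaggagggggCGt
Krt18: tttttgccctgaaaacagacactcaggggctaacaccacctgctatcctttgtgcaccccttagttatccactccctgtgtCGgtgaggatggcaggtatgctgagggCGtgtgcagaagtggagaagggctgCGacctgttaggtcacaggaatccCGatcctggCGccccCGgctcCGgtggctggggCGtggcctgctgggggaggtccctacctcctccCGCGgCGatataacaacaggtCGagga
Csn2: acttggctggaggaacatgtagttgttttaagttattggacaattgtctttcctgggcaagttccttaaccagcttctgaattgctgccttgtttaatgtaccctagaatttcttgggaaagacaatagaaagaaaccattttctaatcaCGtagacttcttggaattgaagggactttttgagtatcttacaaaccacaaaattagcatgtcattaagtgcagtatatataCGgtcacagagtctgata
Ivl: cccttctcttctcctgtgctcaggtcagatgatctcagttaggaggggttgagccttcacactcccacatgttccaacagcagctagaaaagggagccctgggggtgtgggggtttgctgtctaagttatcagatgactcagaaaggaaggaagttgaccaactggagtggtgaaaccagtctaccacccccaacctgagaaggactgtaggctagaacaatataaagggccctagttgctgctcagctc

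Among the 86 members on in M-MDSCs only, Gsta4, a glutathione S-transferase that detoxifies products of lipid peroxidation, had the highest MS-275 level. Gsta4 was at 0 and 0.131 FPKM in the vehicle M-MDSC libraries (0 and 1 read) and at 8.67 and 6.77 FPKM under MS-275 (76 and 47 reads), and at 1.03 and 0.952 under CXD101. In the PMN-MDSC libraries under MS-275 it was at 2.25 and 0.820 FPKM, so it missed the rule there in 1 library. Mdfi, an inhibitor of myogenic basic helix-loop-helix factors, lay at 4.24 and 5.66 FPKM under MS-275 in M-MDSCs and at 0 and 0.316 in PMN-MDSCs. Hoxa7, a homeobox factor of hematopoietic progenitors, lay at 3.40 and 3.36 FPKM against 0.897 and 0.709. The separation by subset was thus wide for Mdfi and narrower for Hoxa7 and Gsta4.

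Csn2 encodes the milk protein beta-casein, and its CXD101 level was near its MS-275 level. It lay at 3.32 and 3.29 FPKM under MS-275 and at 4.31 and 3.22 under CXD101 in M-MDSCs, against 0 and 0.113 in vehicle. Its CpG-poor promoter is printed above. The receptor tyrosine phosphatase Ptpru lay at 4.4 and 4.03 FPKM under MS-275 and at 2.14 and 2.15 under CXD101, and the striated muscle myosin Myo18b at 3.11 and 3.28 and at 1.83 and 1.81. The remaining 4 of the 10 highest were Gstm7, Sorbs3, the neuronal auxilin gene Dnajc6 and the long noncoding RNA Bvht, with mean MS-275 levels of 3.13, 3.05, 3.04 and 3.02 FPKM. Bvht rested on 9 and 15 reads. Over the 86 members the median MS-275 level was 1.63 FPKM in M-MDSCs and 0.492 FPKM in PMN-MDSCs. In PMN-MDSCs 37 of them lay under 0.5 FPKM in both MS-275 libraries, and 17 were at 1 FPKM or more in 1 of the 2 libraries.

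Among the 85 members on in PMN-MDSCs only, the leading levels were higher than in the other classes. Sytl3, a synaptotagmin-like effector of Rab27 in vesicle secretion, lay at 0.107 and 0.110 FPKM in the vehicle PMN-MDSC libraries, at 15.4 and 17.7 under MS-275 and at 11.9 and 11.5 under CXD101. In M-MDSCs it lay at 0.573 and 1.19 FPKM under MS-275. Sema4f, a semaphorin of axon guidance, lay at 0.222 and 0.396 FPKM in vehicle, at 8.65 and 10.8 under MS-275 and at 8.72 and 7.61 under CXD101. In M-MDSCs it did not pass 0.128 FPKM in any library, which sets this gene apart by subset under both inhibitors.

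Vil1, which encodes villin of the intestinal brush border, lay at 0.0772 and 0.0397 FPKM in the vehicle PMN-MDSC libraries (2 reads and 1 read), at 7.90 and 8.12 under MS-275 (176 and 191 reads) and at 5.12 and 4.75 under CXD101 (128 and 108 reads). In M-MDSCs its 6 libraries lay between 0 and 0.176 FPKM. Ivl, which encodes involucrin of the cornified envelope of skin and whose promoter above holds no CG, lay at 4.71 and 3.96 FPKM under MS-275 and 2.44 and 2.16 under CXD101. Both epithelial genes were above 1 FPKM in PMN-MDSCs with either inhibitor, and Ivl did not pass 0.632 FPKM in M-MDSCs. Bcl2l14, a BCL2-family gene, lay at 7.58 and 9.34 FPKM under MS-275 and at 6.82 and 9.54 under CXD101. Baiap3, a gene of dense-core vesicle traffic, lay at 5.03 and 6.14 and at 4.52 and 4.01 FPKM. Mboat2, Ccdc64b, Fam110c and Gm6307 had mean MS-275 levels of 4.67, 4.61, 4.4 and 4.07 FPKM. Over the 85 members the median MS-275 level was 1.81 FPKM in PMN-MDSCs and 0.388 FPKM in M-MDSCs, where 42 members lay under 0.5 FPKM in both libraries and 11 were at 1 FPKM or more in 1 of the 2.

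Vil1 and Mdfi were among the members with wide gaps between the subsets under MS-275, where a gap is partly fixed by the choice of members. Vil1 stood at 0.0887 and 0.112 FPKM in the MS-275 M-MDSC libraries against 7.90 and 8.12 in PMN-MDSCs, and Mdfi at 0 and 0.316 FPKM in PMN-MDSCs against 4.24 and 5.66 in M-MDSCs. The neutrophil receptor Cxcr2 differed within M-MDSCs, from 2.82 and 3.11 FPKM in vehicle to 20.8 and 19.7 under MS-275 and 8.01 and 7.75 under CXD101. Its part in the members' values was not tested. In bulk libraries, more cells that carry a transcript and more RNA per cell cannot be told apart.

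The normal tissue of the members was assigned from textbook knowledge after the members were known, and 129 of 208 received a group. The largest group was nervous system and neuroendocrine genes with 36 members (7 on in both subsets, 16 in M-MDSCs only and 13 in PMN-MDSCs only). Epithelial genes followed with 21 (3, 5 and 13) and genes of growth control and developmental signaling with 18 (3, 11 and 4). Metabolic and detoxifying enzymes numbered 15, blood and immune cell genes 13, matrix, stromal and vessel genes 13, germ cell and cilia genes 10 and muscle genes 3. These are counts of groups made by hand, and no pattern by subset is read from them. The other silent symbols were not grouped, so no share stands beside these counts and the size of a group is not read as a result.

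The nervous system group is shown by 5 examples chosen after their values were seen. Nlgn2, the neuroligin of inhibitory synapses, lay at 1.74 and 1.79 FPKM under MS-275 in M-MDSCs, and Sv2a, a synaptic vesicle protein gene, at 1.09 and 1.11. Stx1a, the presynaptic syntaxin, lay at 1.11 and 1.51 FPKM. On the PMN-MDSC side stood Abcc8, the sulfonylurea receptor of insulin-secreting cells, at 2.53 and 2.09 FPKM, and Pcp4, a calmodulin regulator of Purkinje cells. Pcp4 was listed at 0 in all vehicle and all M-MDSC libraries, at 1.49 and 1.41 FPKM under MS-275 (5 reads each) and at 2.66 and 3.80 under CXD101 (10 and 13 reads) in PMN-MDSCs. The 3 synaptic genes named here were on the M-MDSC side, each under 2 FPKM.

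In the growth control group, Cdkn2a and Cdkn1c encode inhibitors of cyclin-dependent kinases. Cdkn2a lay at 2.53 and 1.77 FPKM and Cdkn1c at 1.11 and 1.15 FPKM under MS-275 in M-MDSCs. Under CXD101 they lay at 0.150 and 0.476 and at 0.228 and 0.181 FPKM, under 0.5 FPKM in each library. Dusp9, a phosphatase of mitogen-activated kinases, lay at 2.97 and 3.01 FPKM under MS-275 and at 1.05 and 0.741 under CXD101. Jag2, a Notch ligand, lay at 1.99 and 2.74 FPKM, and Nrarp, a Notch target and feedback regulator, at 1.71 and 1.74 under MS-275. Cdkn1c, Grb10, Sfmbt2 and Sgce are known imprinted genes, picked by hand with no share over the silent symbols beside them. They fell in all 3 classes: Cdkn1c and Grb10 (1.38 and 1.14 FPKM) in M-MDSCs only, Sgce (1.58 and 1.49 FPKM) in PMN-MDSCs only and Sfmbt2 in both.

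The 10 marker lists drawn up for this series gave few members. Of the silent symbols on each list, the members were 1 of 112 neuronal genes (0.893%), 2 of 131 germline genes (1.53%), 4 of 69 epithelial and keratin genes (5.80%), 3 of 34 endothelial and stromal genes (8.82%), 2 of 16 mast cell, basophil and megakaryocyte genes (12.5%) and 3 of 13 stem and progenitor genes (23.1%). No member came from 62 muscle, 50 hepatocyte, 41 lymphoid or 21 erythroid genes that were silent in vehicle. The share over all silent symbols was 1.86%. The members were Stx1a, the meiotic recombination genes Dmc1 and Msh5, the epithelial genes Krt18, Ovol2, Ivl and Vil1, the matrix and vessel genes Col5a1, Esam and Pdgfrb, the platelet glycoprotein genes Gp1bb and Gp9, and the progenitor factors Hoxa7, Hoxa10 and Hlf. Dmc1 lay at 1.94 and 2.65 FPKM in M-MDSCs and 2.43 and 3.17 in PMN-MDSCs under MS-275. Gp1bb lay at 1.81 and 2.95 FPKM in PMN-MDSCs under MS-275 and at 2.80 and 2.60 under CXD101, and is annotated across the neighboring Sept5 on the same strand, so reads of the pair could be shared. The summed FPKM of the whole epithelial list, of which 40 of 86 genes were at 0 in every library, was 151 to 157 in vehicle, 270 to 279 under MS-275 and 195 to 200 under CXD101 in M-MDSCs. For PMN-MDSCs these sums were 141 to 151, 395 to 413 and 323 to 341. The endothelial and stromal list (10 of 46 genes at 0) summed to 124 to 125, 322 to 360 and 186 to 190 FPKM in M-MDSCs and to 92.5 to 98.4, 189 to 197 and 150 to 153 in PMN-MDSCs. The hepatocyte and hepatoma list (34 of 65 genes at 0) summed to 1098 to 1106, 670 to 687 and 721 to 749 FPKM in M-MDSCs and to 1322 to 1328, 1777 to 1878 and 1611 to 1619 in PMN-MDSCs. The lymphoid and NK list (8 of 51 genes at 0) summed to 21.6 to 26.3, 66.3 to 78.1 and 33.5 to 38.0 FPKM in M-MDSCs and to 30.0 to 30.8, 39.6 to 39.7 and 25.8 to 29.1 in PMN-MDSCs. The neuronal list (50 of 129 genes at 0) fell, from 61.2 to 61.5 in vehicle to 51.3 to 53.1 and 40.7 to 43.6 FPKM in M-MDSCs. In PMN-MDSCs its sums were 46.6 to 51.3, 39.0 to 42.5 and 31.05 to 38.3. For the germline, muscle, erythroid, stem and progenitor, and mast cell, basophil and megakaryocyte lists, both MS-275 sums lay above both vehicle sums in each subset. The part of other cell types in the members' values was not tested. By gene family, 1 of 1116 silent olfactory receptors (Olfr433), 0 of 329 vomeronasal receptors and 2 of 104 keratins (Krt18 and Krt86) were members.

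CXD101 values were not used by the rule. Of the 123 members on in M-MDSCs under MS-275, 22 (17.9%) were at 1 FPKM or more in both CXD101 M-MDSC libraries, and of the 122 on in PMN-MDSCs, 70 (57.4%) were so in both CXD101 PMN-MDSC libraries. Over all silent symbols the shares were 0.215% and 0.762%, and over the 10953 silent symbols that were not members 0.00913% (1 symbol) and 0.137% (15 symbols). Of those on in M-MDSCs only, 14 of 86 were on in M-MDSCs under CXD101 and 0 of 86 in PMN-MDSCs. Of those on in PMN-MDSCs only, 50 of 85 were on in PMN-MDSCs and 1 of 85, the metalloproteinase gene Mmp28, in M-MDSCs. Of the 37 shared members, 8 were on in M-MDSCs and 20 in PMN-MDSCs. In all, 87 of 208 were on in either subset under CXD101, 6 in both (Abhd6, Armcx2, Fbxo44, Grb7, Ptk7 and Rtkn), and 21 lay under 0.5 FPKM in all 4 CXD101 libraries. Leaving out CXD101 replicate 2 of the M-MDSCs raised the M-MDSC-only count from 14 to 23 of 86, since only 1 library then had to pass. Both inhibitor groups are set against the same vehicle libraries, by which the members were chosen.

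**Figure D3:**
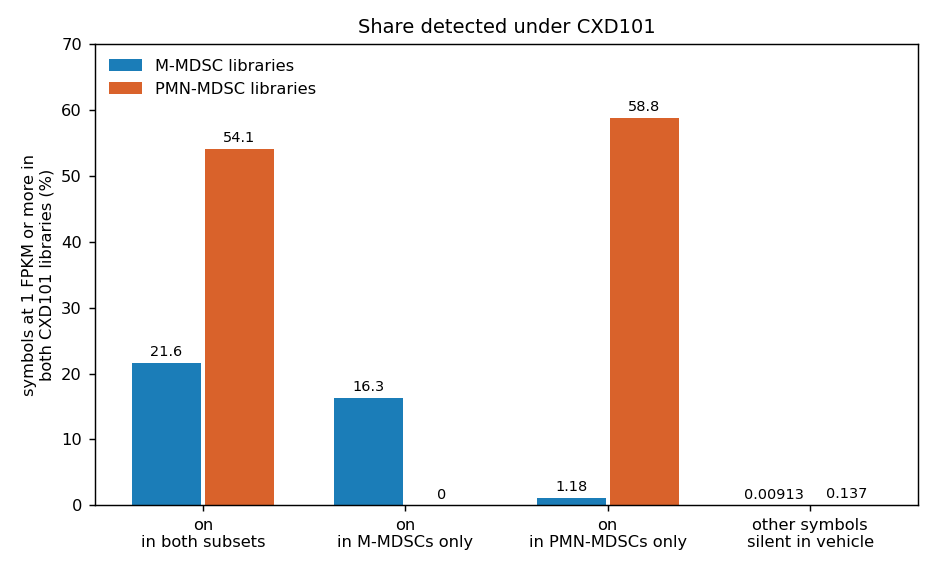
Bars give the percent of symbols at 1 FPKM or more in both CXD101 libraries (y axis, from 0) for the 3 classes of members and for the other symbols silent in vehicle (x axis), in M-MDSC and PMN-MDSC libraries. Bars for PMN-MDSCs stand at 54.1 and 58.8% in the classes on in both subsets and in PMN-MDSCs only, and M-MDSC bars reach 21.6 and 16.3% in the classes on in both and in M-MDSCs only.

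Levels under CXD101 were mostly below those under MS-275. Dividing a member's mean CXD101 FPKM by its mean MS-275 FPKM gave a median of 0.383 for the 123 members in M-MDSCs and 0.68 for the 122 in PMN-MDSCs. Both MS-275 libraries lay above both CXD101 libraries for 112 of 123 members in M-MDSCs and 81 of 122 in PMN-MDSCs, and the share of all 11662 symbols tested was 25% and 23.3%. The rule asked for high MS-275 values, so nothing is read from this order. The exceptions, named after their values were seen, had both CXD101 libraries above both MS-275 libraries: 9030619P08Rik and Fam83f in M-MDSCs, and Gm5294, Ltb4r2, Mcam, Pcp4, St8sia1 and Tmem181c-ps in PMN-MDSCs. Tmem181c-ps, a pseudogene 19302 bases from Sytl3, lay at 2.28 and 2.58 FPKM under MS-275 and at 4.55 and 5.27 under CXD101, and its reads may be shared with the Tmem181 genes. Mcam, an adhesion molecule of vessels, lay at 3.74 and 3.41 FPKM and at 4.03 and 4.34.

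**Figure D4:**
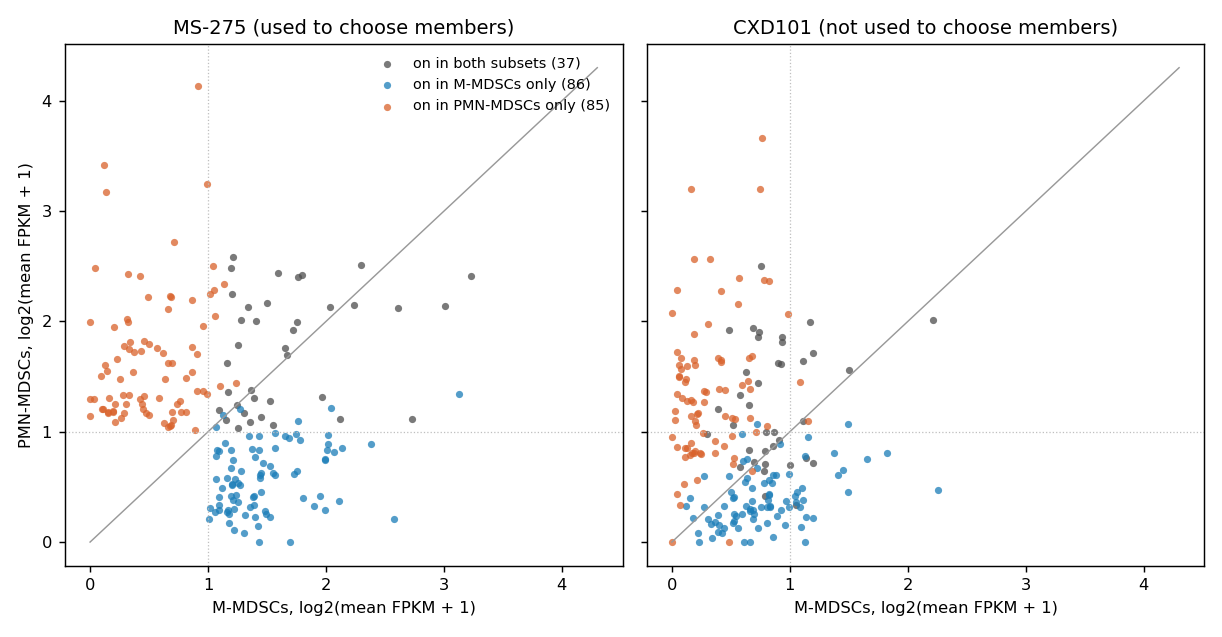
Each point is a member, placed by its mean level in M-MDSCs (x axis) and PMN-MDSCs (y axis) as log2(mean FPKM + 1), under MS-275 (left) and CXD101 (right). Colors give the class (37, 86 and 85 members), dotted lines mark 1 FPKM and the diagonal marks equal levels. Under CXD101 the M-MDSC members lie mostly below and the PMN-MDSC members mostly above the diagonal, nearer to 0 than under MS-275.

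The difference between the subsets under CXD101 was tested with limma, since the rule used none of these 4 libraries. Over all 11662 symbols, 2851 were called higher in PMN-MDSCs (24.4%) and 2860 higher in M-MDSCs (24.5%), at an adjusted p-value under 0.05 (Benjamini-Hochberg over all symbols tested) and a fold change above 1.5 on the log2(FPKM + 1) scale. Of the 85 members on in PMN-MDSCs only under MS-275, 64 were higher in PMN-MDSCs under CXD101, 0 were higher in M-MDSCs (limma, 0 also at an unadjusted p under 0.05) and 21 did not pass. The median difference (PMN-MDSCs minus M-MDSCs) of these 85 was 0.98 log2 units, against 0.01 over all symbols. Of the 86 on in M-MDSCs only, 26 were higher in M-MDSCs, 0 in PMN-MDSCs (2 at an unadjusted p under 0.05) and 60 did not pass, with a median of -0.34, so the count called was near the background share. That count fell to 16 without CXD101 replicate 1 of the M-MDSCs. All 208 members entered the fit through the MS-275 libraries that chose them. With only the 4 CXD101 libraries in the filter and the fit, 88 members were tested, and 48 PMN-MDSC-only members were called higher in PMN-MDSCs and 10 M-MDSC-only members higher in M-MDSCs. Over the 11119 symbols of that fit, 2803 were higher in PMN-MDSCs and 2809 in M-MDSCs. Its filter asks for 1 FPKM in 2 of these libraries, which a member can meet through 1 subset alone. In all, 87 of the 208 members were at 1 FPKM or more in both CXD101 libraries of a subset. The direction of these calls was thus largely fixed by the filter, and no support is drawn from them. Of the 37 shared members, 16 were called higher in PMN-MDSCs, 1 higher in M-MDSCs (Hsd17b14, a steroid dehydrogenase family gene) and 20 did not pass. Their median was 0.51. They too entered the fit through the MS-275 libraries, so no lean is read from these counts.

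On the log2(FPKM + 1) scale Sema4f had the largest difference, 3.03 ± 0.14 (SE) log2 units higher in PMN-MDSCs under CXD101 (adjusted p = 1.37e-08). Sytl3 followed at 2.91 ± 0.16 (adjusted p = 5.97e-08). Bcl2l14 (2.47 ± 0.23, adjusted p = 3.26e-06) and Vil1 (2.38 ± 0.12, adjusted p = 2.50e-08) came next. These 4 were also the 4 highest PMN-MDSC-only members under MS-275, whose values chose the members, so nothing is read from this match. Tmem181c-ps, Ccdc64b, Pcp4, Gm5294, Baiap3 and the radial spoke gene Rsph9 differed by 1.74 to 2.24 log2 units. Sizes and order depended on the pseudocount, the value added to FPKM. With 0.1 in place of 1, Sema4f differed by 5.24, Pcp4 by 5.04, Ccdc64b by 4.97 and Vil1 by 4.42 log2 units. Sytl3 and Bcl2l14 then differed by 3.93 and 3.57. Among the epithelial genes named above, Ivl was higher by 1.68 ± 0.20 (adjusted p = 1.76e-05) and Ovol2, a zinc finger factor of epithelial identity, by 0.98 ± 0.17 (adjusted p = 0.000394). Krt18 did not pass, at -0.31 ± 0.14 (adjusted p = 0.062).

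On the M-MDSC side Csn2 differed most on the log2(FPKM + 1) scale, at -1.80 ± 0.23 (adjusted p = 3.85e-05). It lay at 4.31 and 3.22 FPKM in M-MDSCs and at 0.629 and 0.137 in PMN-MDSCs. 2810429I04Rik was next at -1.10 ± 0.24 (adjusted p = 0.00153), before Myo18b at -1.05 ± 0.13 (adjusted p = 2.14e-05). With a pseudocount of 0.1, 2810429I04Rik (-3.60) differed more than Csn2 (-3.20). Sox12, a developmental transcription factor, differed by -0.98 ± 0.14 (adjusted p = 8.93e-05). Mdfi differed by -0.96 ± 0.19 (adjusted p = 0.000763) and Hoxa7 by -0.79 ± 0.16 (adjusted p = 0.000843). Ptpru, Adgrg7, Klk8 and Hebp2 lay between -0.90 and -0.80. Bvht passed at -0.99 ± 0.39 (adjusted p = 0.0381) but lost the call without CXD101 replicate 2 of either subset, and Klk8 (adjusted p = 0.0247) lost it without CXD101 replicate 1 of either subset or replicate 2 of the M-MDSCs. 2810429I04Rik shares its annotated locus with the member 1700024F13Rik, so the pair is not independent. Ptk7 and Armcx2, the highest shared members, did not pass, at -0.19 ± 0.16 (adjusted p = 0.275) and 0.06 ± 0.15 (adjusted p = 0.743).

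**Figure D5:**
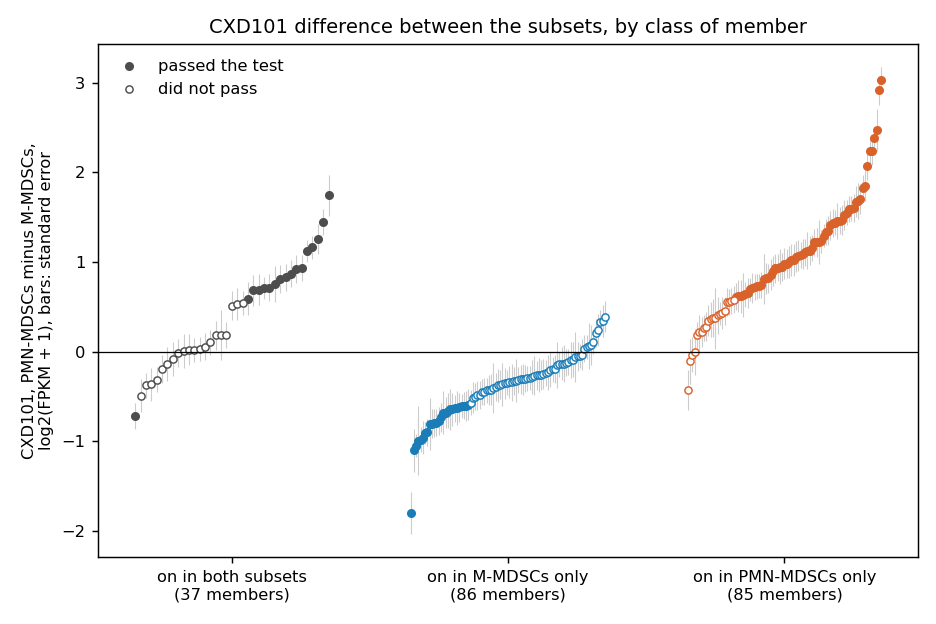
CXD101 difference between PMN-MDSCs and M-MDSCs for every member on the log2(FPKM + 1) scale (y axis, bars are standard errors of the limma fit), ordered within the 3 classes (x axis). Filled points passed the test: 64 of 85 PMN-MDSC-only members, all above 0, and 26 of 86 M-MDSC-only members, all below 0. Of the 37 shared members, 16 passed above 0 and 1 below 0. Over all symbols tested, 24.4% were called higher in PMN-MDSCs and 24.5% higher in M-MDSCs. The direction was largely fixed by the filter, so no support is drawn from it.

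By position, 14 pairs of members lay within 100000 bases of each other. They included Hoxa7 and Hoxa10 (9342 bases apart, both in M-MDSCs only), Abcc8 and Ush1c (15316 bases apart, both in PMN-MDSCs only), Sapcd1 and Msh5 (588 bases apart), Fgf11 and Nlgn2 (21264 bases apart) and Stx1a and Mlxipl (38789 bases apart). Hoxa10 was listed at 0 in all 4 vehicle libraries and lay at 1.14 and 1.06 FPKM under MS-275 in M-MDSCs. On the X chromosome lay 7 of the 191 protein-coding members (3.66%), against 5.80% of the other silent and 2.99% of the detected protein-coding symbols. In the annotation 82 of the 208 members overlap a gene on the other strand, among them Vil1 (Usp37), Sytl3 (Ezr), Ccdc64b (Thoc6), Baiap3 (Tsr3), Rsph9 (Mrps18a) and Hoxa7 (Hoxaas3). Whether fragments were assigned by strand is not given in the sources used here, so values of these members are less certain.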

How the data were processed

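RNA was sequenced from 12 libraries (6 groups, 2 libraries each). For each library the authors deposited FPKM values of 24346 gene symbols. The submitters' processing notes name TopHat2 2.1.1, Bowtie2 2.2.8, SAMtools 0.1.18, Cuffdiff 2.2.1 and the build mm10; the annotation is not given in the sources used here. RNA extraction is described with different kits by the labels and the study's methods. No counts were analysed, so FPKM were tested on the log scale: limma 3.58.1 (R 4.3.3) on log2(FPKM + 1), intensity trend, 6 group means over 12 libraries, symbols reaching 1 FPKM in 2 or more libraries, Benjamini-Hochberg adjustment. On simulated data with 200 genes changed by 1 log2 unit, 184 passed with the correct sign, and 5 of the other genes passed (11662 genes in all). The changed genes were drawn from those with a mean log2(FPKM + 1) above 1, and no other gene differed between the CXD101 groups. Members were lower, with median CXD101 means of 0.514 FPKM in M-MDSCs and 0.752 FPKM in PMN-MDSCs. Their median standard error was 0.163, against 0.110 over all symbols tested. The simulated rates therefore do not apply to the members. Symbols and coordinates were matched to GENCODE M21 (GRCm38) and RefSeq (GRCm38.p6), with 205 of 208 members located.

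The members, marker lists and tests were chosen with earlier results of these data known, and the tissue groups after the members were seen. Named were the 10 members per class with the highest mean MS-275 FPKM, marker-list members, the 5 with the highest CXD101 mean in each subset, up to 10 called CXD101 differences in each direction, and those nearest to the limits; 1 gene that this rule names is not reported here, and others named in the text were chosen after their values were seen. The planned count of CpG and motifs in RefSeq promoters was void, since 77.5% of protein-coding members have an entry. The sources used here do not say how many mice gave a library or whether the PMN-MDSC libraries came from separate mice, so p-values measure the spread between libraries. Python 3.11.15, numpy 2.4.6, pandas 2.3.3 and matplotlib 3.10.9 were used for other steps.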

Additional observations from a re-analysis of the deposited data

How the results depend on the processing

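The number of members followed the limits. It was 78 with vehicle under 0.25 FPKM (10 on in both subsets, 35 in M-MDSCs only, 33 in PMN-MDSCs only), 476 with vehicle under 1 FPKM (119, 179 and 178) and 72 with MS-275 at 2 FPKM or more (8, 22 and 42). Median-of-ratios scaling gave 208 again. Leaving out 1 of the 8 libraries gave 229 to 255 members, with 41 to 47 on in both subsets, 76 to 129 in M-MDSCs only and 78 to 132 in PMN-MDSCs only, since fewer libraries then had to pass; the highest count came without MS-275 replicate 2 of the PMN-MDSCs.

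With CXD101 at 2 FPKM or more in both libraries, 16.3% of members were on in either subset. Of those on under MS-275 in the same subset, 2.44% were on in M-MDSCs and 26.2% in PMN-MDSCs. By class it was 2.70% (both subsets), 2.33% (M-MDSCs only) and 0% (PMN-MDSCs only) in M-MDSCs, and 29.7% (both subsets) and 24.7% (PMN-MDSCs only) in PMN-MDSCs. Leaving out 1 CXD101 library gave 46.2 to 47.1% on in either subset, against 41.8%. In M-MDSCs it gave 17.9 to 26.8% of the members on there under MS-275, 21.6 to 29.7% of the shared, 16.3 to 26.7% of the M-MDSC-only and 1.18 to 3.53% of the PMN-MDSC-only members. In PMN-MDSCs it gave 57.4 to 65.6%, 54.1 to 62.2%, 0 to 3.49% (M-MDSC-only) and 58.8 to 68.2% (PMN-MDSC-only). A pair of settings was added after the data were seen. Without the members that overlap a gene on the other strand, 0% of the PMN-MDSC-only members were on in M-MDSCs, and 37.3% of 126 were on in either subset. The share was also 0% among members with 10 or more reads in each passing MS-275 library.

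In the CXD101 comparison of the subsets, 107 members were called. A fold change above 2 left 48 (40 PMN-MDSC-only and 5 shared members higher in PMN-MDSCs, 3 M-MDSC-only members higher in M-MDSCs). A minimum of 5 FPKM left 10 members to test and 7 calls (5, 1 and 1), and a fit of the 4 CXD101 libraries alone tested 88 members and called 73, with 10 M-MDSC-only members higher in M-MDSCs. Members could enter the fit of the 4 CXD101 libraries through 1 subset alone, so the direction of its calls was largely fixed by the filter. Leaving out 1 CXD101 library gave 98 to 107 calls, 62 to 66 PMN-MDSC-only, 16 to 24 M-MDSC-only and 14 to 16 shared members in these directions, and 0 to 1 single-subset member called higher in the other subset. With 1 library left in a group its spread is taken from the other groups. Pseudocount 0.1, no filter, both scalings and no intensity trend gave 103 to 121 calls. The replicate numbers did not pair the libraries: same-numbered libraries' deviations correlated by -0.126 to 0.179, and by -0.126 between the CXD101 groups. The replicate block gave 107 calls, and the crossed pairing, added for that reason, 107. Of the 20 genes named for this comparison, none reversed in 261 values under alternatives and 14 values lost the call. The sizes and the order of their differences changed with pseudocount 0.1.

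With 2 libraries a group, outlying samples were not tested.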
